A study of Mus musculus with 10 samples.

Results

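Tet3 knockout cells given Dkk, a secreted inhibitor of Wnt signalling, were compared with Tet3 knockout cells not given it, both on day 10 of neural differentiation. The members are 2 of the 10 libraries of the study, 1 with and 1 without Dkk, and the 12414 of 21937 gene symbols listed at 1 RPKM or more in either of them. RPKM is the number of reads on a gene scaled by transcript length and by the library total. The study used mouse embryonic stem (ES) cells of a C57BL/6 background, differentiated towards neuroectoderm as serum-free floating aggregates (SFEB culture). Wild-type cells, knockout cells and knockout cells with Dkk each gave 1 library on day 6 and 1 on day 10. The other 4 libraries, of control and Tet3-overexpressing cells cultured with serum, are not part of the comparison. In the knockout a floxed exon of Tet3 had been removed by transient Cre recombinase, and both libraries compared carry that deletion. The labels name no further line of either genotype, so genotype and line cannot be told apart, and they name neither the Dkk family member nor its form or dose.

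Dkk proteins bind Lrp5 and Lrp6, the coreceptors that Wnt ligands use together with Frizzled receptors to stabilise beta-catenin. In the early embryo high Wnt activity, together with retinoic acid and fibroblast growth factors, gives neural tissue a posterior character and turns on Hox genes in the order of their position in the clusters. Low Wnt activity at the head end is required for the forebrain, marked by Otx2 and Lhx2, while R-spondins are secreted proteins that strengthen Wnt signalling by protecting Frizzled receptors from degradation.

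Each condition had 1 library on day 10, so no single difference could be tested, and a gene is called higher or lower where log2(RPKM + 0.5) differed by 2-fold or more. The 6 SFEB libraries listed 11028 to 12152 genes at 1 RPKM or more. Estimated from the low values, depth was 10200000 to 11300000 reads in 5 of them and 37000000 in the Dkk-treated library of day 10. On day 10 the deleted gene Tet3 was at 14.3 RPKM without Dkk, 13.1 with it and 10.2 in wild type. Since 1 exon was removed and reads were summed over the gene, these levels do not check the genotype. Tet1 was at 2.33 RPKM without and 2.19 with Dkk, and Tet2 at 3.54 and 2.80 RPKM.

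More genes were lower than higher with Dkk. Of the 12414 genes, 674 were lower (5.43%) and 208 were higher (1.68%), while the median difference over all genes was -0.01 on the log2 scale. The lower genes led at every size, with 153 lower against 50 higher at 4-fold, 41 against 15 at 8-fold and 15 against 2 at 16-fold. Among the 20 largest decreases in genes reaching 5 RPKM, 18 were Hox genes, and Aldh1a2 of the retinoic acid pathway was also among them. The 20 largest increases were led by Rspo2, the AP-2 factor gene Tcfap2d, the thyroxine carrier gene Ttr and the homeobox gene Lhx2. Low genes were called more often: of 2978 genes whose higher value was 1 to 5 RPKM, 10.8% were lower and 4.1% higher, against 1.23% and 0.247% of 811 genes at 100 RPKM or more. Of the lower genes 304 passed the 1 RPKM filter in the knockout library alone, and of the higher genes 117 passed it in the library with Dkk alone. Estimated depth was 10900000 reads in the untreated and 37000000 in the treated library, and the part of this difference in the calls of low genes was not tested. A gene that passed the filter through 1 library alone had to be higher in it. Beside many list counts, the number of such genes or the median over all listed members is therefore given. Where neither is given, a count may still hold such genes. All list counts are to be read against the shares of all genes above. Symbols of small RNAs made up 122 of the genes, with 28 higher and 27 lower.

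**Figure D1:**
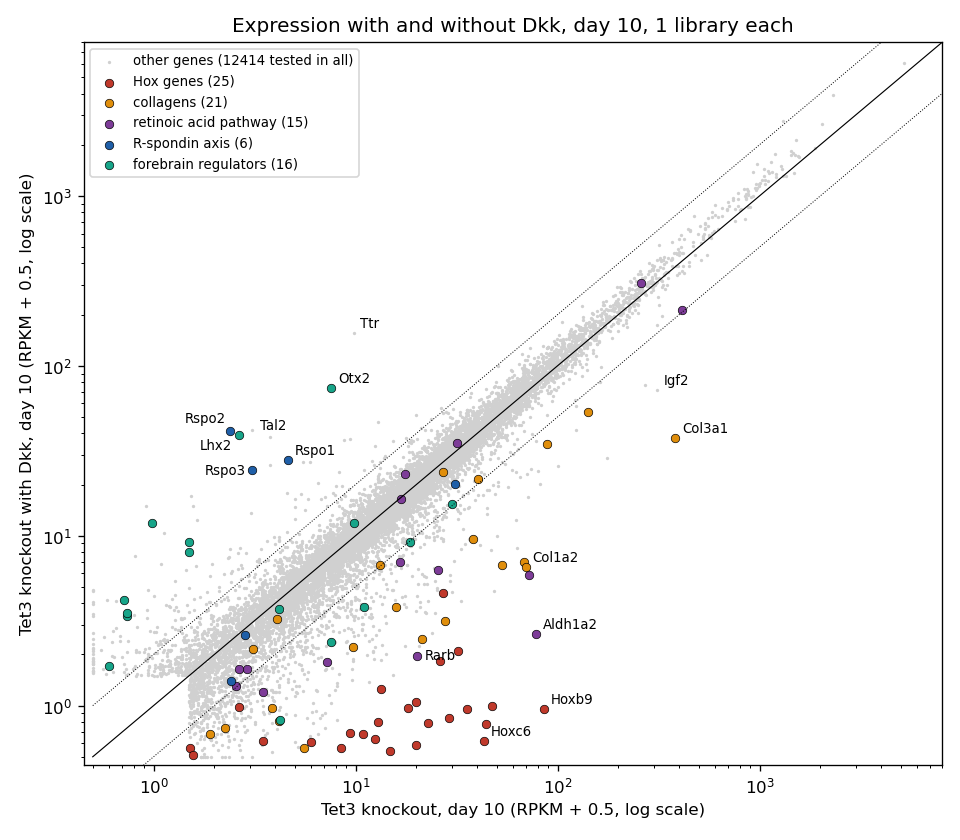
RPKM + 0.5 of each of the 12414 genes in the knockout (x axis) and in the knockout with Dkk (y axis) on day 10, both on log scales, 1 library each. The solid line marks equal values and the dotted lines 2-fold differences; Hox genes lie at the lower right, and Rspo1, Rspo2, Rspo3, Otx2 and Lhx2 lie above the upper dotted line.

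The day 6 pair, which shares no library with the day 10 pair, is the one other comparison of the treatment. It is another day of differentiation and not a replicate, so day and repeat cannot be told apart. On day 6, 445 of 11587 genes were lower with Dkk (3.84%) and 267 were higher (2.3%). Of the genes lower on day 10, 187 were also lower on day 6, which is 27.7% of the day 10 list and 42% of the day 6 list. Shared higher genes numbered 39, or 18.8% of the day 10 list and 14.6% of the day 6 list. Opposite calls were fewer, with 18 genes lower on day 10 and higher on day 6 and 9 the other way. A limma fit over the 6 SFEB libraries, with condition and day as terms and 2 residual degrees of freedom, called 24 genes lower (0.193% of 12414) and 4 higher (0.0322%) with Dkk over both days at an adjusted p of 0.05. The residual of that fit is what a condition does differently on the 2 days, so a response that differed between the days counts there as error. Each condition had a single library a day, and the p-values measure no spread between cultures of the same day. The calls rest on the filter and settings: with no filter the same fit called none (1501 genes at an unadjusted p under 0.05), with all 10 libraries 9 lower and 2 higher, and with an intensity trend 74 lower and 15 higher. No adjusted limma p given for a single gene was therefore under 0.05 without the filter. The 24 genes held 11 Hox genes, the retinoic acid genes Aldh1a2, Rarb and Stra6, the matrix genes Vtn, Emid2 and Has2, and Igfbp5, Mnx1, Ets1, Fndc5, Serpinf1, Rgs5 and Tmem119. The 4 higher genes were Otx2, Wnt8b, Fezf1 and Lmx1b.

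Hox genes, which encode homeodomain factors of positional identity from the hindbrain to the tail, were low almost throughout with Dkk. Of the 39 Hox genes listed, 25 passed the filter, and all 25 were lower, with a median log2 difference of -4.01. For 22 of the 25 the filter was passed in the knockout library alone, so their direction follows in part from the filter, and these counts describe the levels and are no separate support. Hoxb9 was at 85.5 RPKM without Dkk, 0.46 with it and 0.72 in wild type on day 10. Its day 6 values were 60.7 RPKM without and 0.10 with Dkk, so the 2 knockout libraries without Dkk stood far above the other four on both days. The log2 difference of Hoxb9 was -6.48 on day 10 (95% counting interval of the read ratio -8.03 to -7.10, which covers counting error only and has no pseudocount), and limma gave -6.58 over both days (SE 0.167, adjusted p = 0.00290). In bulk libraries fewer cells of a type and less RNA per cell cannot be told apart, here and in every result that follows.

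All 4 Hox clusters were lower in sum with Dkk. Hoxb genes summed to 13.1 RPKM in wild type, 296.3 without Dkk and 4.51 with it. For Hoxa the sums were 28.6, 112.7 and 6.25 RPKM, for Hoxc 1.82, 101.5 and 1.89 RPKM, and for Hoxd 0.97, 26.5 and 0.78 RPKM. In Hoxa and Hoxb the library with Dkk thus held less Hox transcript than the wild-type library. In Hoxc and Hoxd the sums of these libraries were both low and near each other. By position in the clusters, the genes of paralog groups 1 and 2, the most anterior, had a median of -2.08 (4 genes), groups 3 to 5 of -4.01 (10 genes), groups 6 to 8 of -4.97 (8 genes) and group 9 of -2.49 (3 genes). The added 0.5 RPKM limits the fall that a low gene can show. Hoxb1 (1.06 to 0.01 RPKM), Hoxa9 (1.01 to 0.06) and Hoxc9 (2.98 to 0.12) were low without Dkk as well. The smaller medians of groups 1 and 2 and of group 9 thus rest in part on low starting levels. A difference between the groups was not tested. None of the 12 genes of groups 10 to 13 reached 1 RPKM in either library, and the highest of them in the knockout was at 0.16 RPKM.

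Within the clusters Hoxc6 was at 42.9 RPKM without and 0.12 with Dkk, Hoxb6 at 46.6 and 0.50, and Hoxb8 at 43.8 and 0.28. These trunk-level genes were at 0.33 to 0.40 RPKM in wild type, so wild type and the treated knockout were both at 0.50 RPKM or less. Hoxa5 was at 34.9 RPKM without and 0.45 with Dkk, and Hoxb5, of the same paralog group in another cluster, at 28.4 and 0.34. Only 3 of the 25 genes stayed at 1 RPKM or more with Dkk: Hoxa2 (26.5 to 4.10 RPKM, 20.7 in wild type), Hoxb2 (31.5 to 1.59, 8.21 in wild type) and Hoxc4 (25.6 to 1.32, 0.84 in wild type). Hoxa2 and Hoxb2, which pattern the anterior hindbrain, were the Hox genes with the highest wild-type levels, and with Dkk both lay below wild type. Hoxb1, the earliest gene of its cluster, was at 1.06 RPKM without Dkk on day 10, after 18.2 RPKM on day 6. With Dkk it was at 0.01 RPKM on day 10, and its difference of -1.61 on the log2 scale is limited by the added 0.5 RPKM. Neighbouring Hox transcripts overlap and the strand setting of the counting is not given, so single values within a cluster may hold reads of a neighbour or an antisense RNA.

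**Figure D2:**
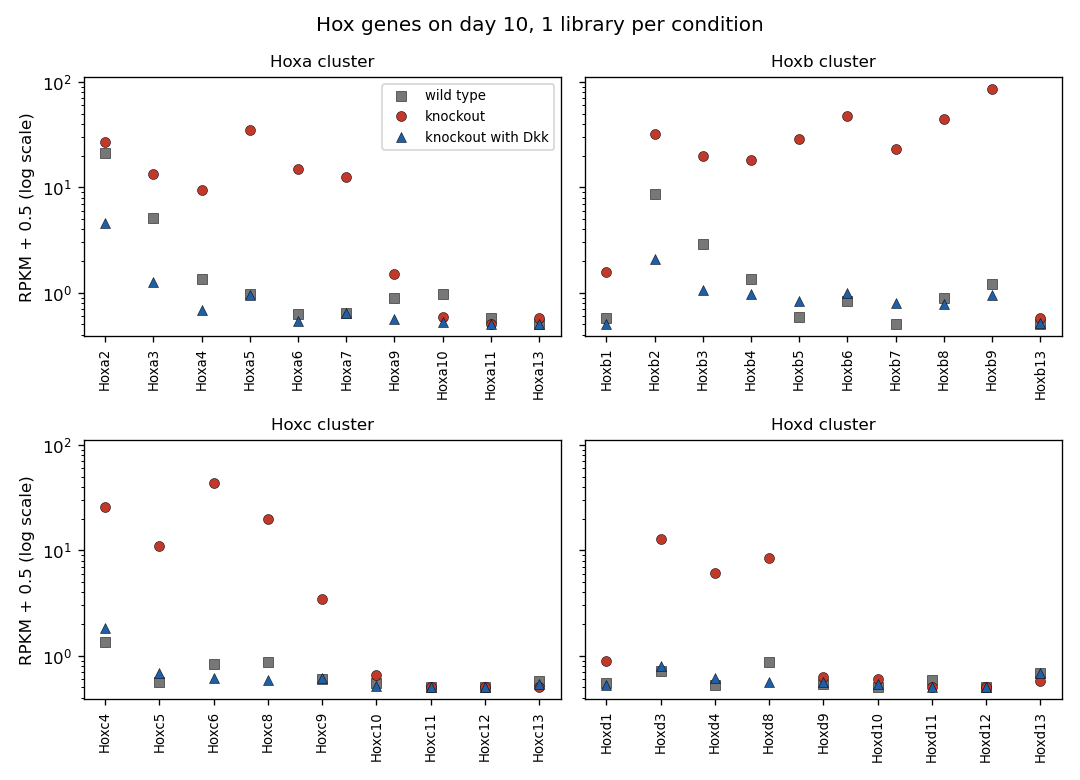
RPKM + 0.5 (log scale) of Hox genes on day 10, in cluster order from the 3′ end of each cluster (left) to the 5′ end (right). Squares are wild type, circles the knockout and triangles the Dkk-treated knockout, 1 library each. Knockout points reach 85.5 RPKM at Hoxb9, and with Dkk only Hoxa2, Hoxb2 and Hoxc4 of the genes that passed the filter are at 1 RPKM or more.

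Of 18 genes that make, carry and read retinoic acid 15 passed the filter, and 7 were lower with Dkk, against 5.43% of all genes. None was higher, and the median was -0.97, or -0.96 over all 18. Of the 7, 1 passed in the knockout library alone. None of the Cyp26 enzymes that degrade retinoic acid was called on day 10. On day 6 Cyp26a1 was at 7.71 RPKM without and 2.84 with Dkk (-1.30), and Cyp26b1 at 14.98 and 4.23 (-1.71). Aldh1a2, the main enzyme of retinoic acid synthesis in the early trunk, was at 77.7 RPKM without Dkk, 2.15 with it and 0.70 in wild type. On day 6 it was at 74.2 RPKM without and 1.41 with Dkk, and limma gave a log2 difference of -5.09 over both days (SE 0.172, adjusted p = 0.00600). Both knockout libraries without Dkk were thus high and all the others low. Stra6, the retinol uptake receptor, was at 6.68 and 1.30 RPKM, and Rdh10, which makes retinaldehyde, at 25.0 and 5.77. Rdh10 differed by -2.02 on day 10 and by -0.27 on day 6, whereas Stra6 differed by -2.0 and -1.94.

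The receptor gene Rarb, itself induced by retinoic acid, was at 19.5 RPKM without Dkk, 1.45 with it and 1.36 in wild type on day 10, and at 13.7 and 1.05 RPKM in the knockout pair of day 6. Over both days limma gave -3.28 (SE 0.227, adjusted p = 0.0356). Rara was at 16.2 and 6.48 RPKM and Dhrs3, which returns retinaldehyde to retinol, at 3.0 and 0.70. Among genes within 2-fold, the binding protein gene Crabp1 was at 411 RPKM without and 214 with Dkk, Crabp2 at 258 and 307, and the degrading enzymes Cyp26a1 and Cyp26b1 at 2.41 and 1.14 and at 17.1 and 22.5. Cyp26b1 was at 44.7 RPKM in wild type, above both knockout libraries. The 250 bases before the RefSeq start of Rarb are shown because Rarb is a textbook target of retinoic acid. They lie at chr14:16575477-16575726 on the minus strand of GRCm38.p6, and capitals mark a repeat of GGTTCA and AGTTCA with 5 bases between.

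Rarb: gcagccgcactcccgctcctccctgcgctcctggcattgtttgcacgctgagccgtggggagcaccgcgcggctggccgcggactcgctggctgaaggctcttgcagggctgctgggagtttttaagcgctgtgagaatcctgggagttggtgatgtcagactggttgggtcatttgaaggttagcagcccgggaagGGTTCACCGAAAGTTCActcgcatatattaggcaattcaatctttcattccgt

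The repeat begins at -53 from the start site, and on either strand these letters were found in 1 of 12556 windows of the same length before starts of the genes compared, that of Rarb. They are the letters of the Rarb repeat itself and were searched after the data had been seen, so a match at Rarb was fixed in advance. The match is a description of the sequence, not a measured site. Direct repeats of AGGTCA with 5 or 2 bases between were in 0 of 9743 genes with a window, on either strand.

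Among the Wnt ligands 3 were higher and 3 lower of 12 that passed the filter, with a median of 0.15, or 0.10 over all 19 listed. Of these, 1 higher and 1 lower gene passed in 1 library alone. Wnt8b, a ligand of the dorsal forebrain, was at 1.06 RPKM without Dkk, 14.4 with it and 1.38 in wild type on day 10. On day 6 it was at 0.77 and 13.7 RPKM in the knockout pair, and limma gave 3.37 over both days (SE 0.249, adjusted p = 0.0360). Wnt3a was at 0.43 and 3.13 RPKM and Wnt3 at 1.41 and 5.28 RPKM, and both act through beta-catenin. The lower ligands were Wnt4 (8.97 to 2.95 RPKM), Wnt11 (3.74 to 0.95) and Wnt5a (10.8 to 4.51), of which Wnt11 and Wnt5a act mainly without beta-catenin. Wnt7b, the most abundant ligand, was at 34.4 and 35.0 RPKM. The secretion genes Wls and Porcn were at 59.4 and 58.4 RPKM and at 18.95 and 15.98 RPKM.

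R-spondin genes were among the largest increases of the table. Rspo2 was at 1.89 RPKM without Dkk, 40.9 with it and 4.48 in wild type, a log2 difference of 4.11 (95% counting interval of the read ratio 4.09 to 4.81). Rspo3 was at 2.56, 23.8 and 2.46 RPKM, and Rspo1 at 4.14, 27.4 and 2.64 RPKM, in the same order. All 3 were thus higher with Dkk than in either the untreated knockout or wild type. On day 6 Rspo2 was at 0.32 without and 7.97 with Dkk and Rspo1 at 1.53 and 8.89, but Rspo3 was at 10.8 and 4.81 RPKM. The R-spondin receptor genes Lgr4 and Lgr5 were at 30.5 and 19.7 RPKM and at 1.92 and 0.90 RPKM, and the ligase gene Znrf3, whose product R-spondins inhibit, at 2.35 and 2.11 RPKM. Of 9 genes of this axis 6 passed the filter, with a median of 1.23. Over all 9, without the filter, it was -0.03, since Lgr6, Rspo4 and Rnf43 were under 1 RPKM in both libraries.

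The receptors that Dkk acts through were within 2-fold. Lrp5 was at 9.37 RPKM without and 8.03 with Dkk, Lrp6 at 9.94 and 8.64, and Kremen1, which helps Dkk remove Lrp6 from the membrane, at 10.5 and 7.57. Of 14 Wnt receptors that passed the filter 2 were higher and 3 lower, with a median of -0.19 over all 15 listed. Of the 3, 1 passed in the knockout library alone. Fzd10 was at 12.4 RPKM without Dkk, 46.5 with it and 15.0 in wild type, and Fzd1 at 11.5, 27.0 and 13.9. Neither differed by 2-fold on day 6, when Fzd10 was at 22.3 and 21.7 RPKM and Fzd1 at 6.58 and 5.80. Ror2, Fzd7 and Ror1 were lower, Ror2 at 10.3 and 2.84 RPKM. None of the 19 intracellular pathway genes that passed the filter was called, and their median was 0.09, with beta-catenin (Ctnnb1) at 369 and 424 RPKM.

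Of 9 secreted Wnt antagonists of the cells that passed the filter 4 were lower, against 5.43% of all genes, and 1 higher, against 1.68%. Their median was -0.83, or -0.30 over all 16 listed. Frzb was at 22.4 RPKM without Dkk, 3.64 with it and 7.92 in wild type. Igfbp4 was at 122.6, 41.2 and 25.5 RPKM, Sfrp2 at 122.4, 57.4 and 110.0, and Dkk3 at 9.39, 3.69 and 2.46. The higher one was Sostdc1, at 0.78 and 4.00 RPKM and listed at 0 in wild type, and it passed in the treated library alone. No Dkk family transcript was higher: Dkk1 was at 0.94 and 1.08 RPKM, Dkk2 at 1.28 and 0.50, and Dkk4 was listed at 0.

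Genes that commonly report Wnt activity did not move together. Of 20 feedback and target genes 15 passed the filter, with a median of -0.16. Axin2, the usual feedback reporter, was at 10.1 RPKM without Dkk, 12.8 with it and 4.52 in wild type on day 10. On day 6 it was at 10.3, 32.7 and 19.9 RPKM in the same order, and the knockout pair differed by 1.62 on the log2 scale. Lef1, a transcription factor that acts with beta-catenin and is also a target, was higher, at 5.02 RPKM without Dkk, 26.6 with it and 10.7 in wild type, and on day 6 at 21.1 and 13.1 RPKM in the knockout pair. Sp8, which also marks the forebrain, was lower at 10.5 and 3.29 RPKM. Ccnd1 was at 140 and 109 RPKM, Myc at 9.14 and 4.54, Tcf7 at 5.10 and 4.66, and T, the early mesoderm regulator, at 2.19 and 1.90. The caudal genes Cdx1, Cdx2 and Cdx4, direct activators of Hox genes, were under 1 RPKM in both libraries on day 10. On day 6 they had been at 6.41, 20.4 and 2.67 RPKM without Dkk, against 0.16, 1.27 and 0 with it.

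Sp5, a direct target in many tissues, was at 0.70 RPKM without Dkk, 1.32 with it and 0.67 in wild type. Its 250 bases before the RefSeq start, at chr2:70474673-70474922 on the plus strand of GRCm38.p6, are shown with matches to the TCF/LEF core in capitals. That core was searched on both strands as CTTTG followed by 2 bases that are each A or T.

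Sp5: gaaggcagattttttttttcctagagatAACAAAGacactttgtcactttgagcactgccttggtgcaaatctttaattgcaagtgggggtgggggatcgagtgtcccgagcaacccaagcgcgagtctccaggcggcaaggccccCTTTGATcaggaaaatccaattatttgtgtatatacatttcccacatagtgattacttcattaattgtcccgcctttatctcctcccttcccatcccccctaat

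The matches begin at -222 and -104. Among all compared genes with a window, 11.99% of 9743 held the core, against 13.3% of 135 higher and 12.8% of 460 lower genes. The shares of the called genes were close to that of all genes, and a match is not a measured site.

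**Figure D3:**
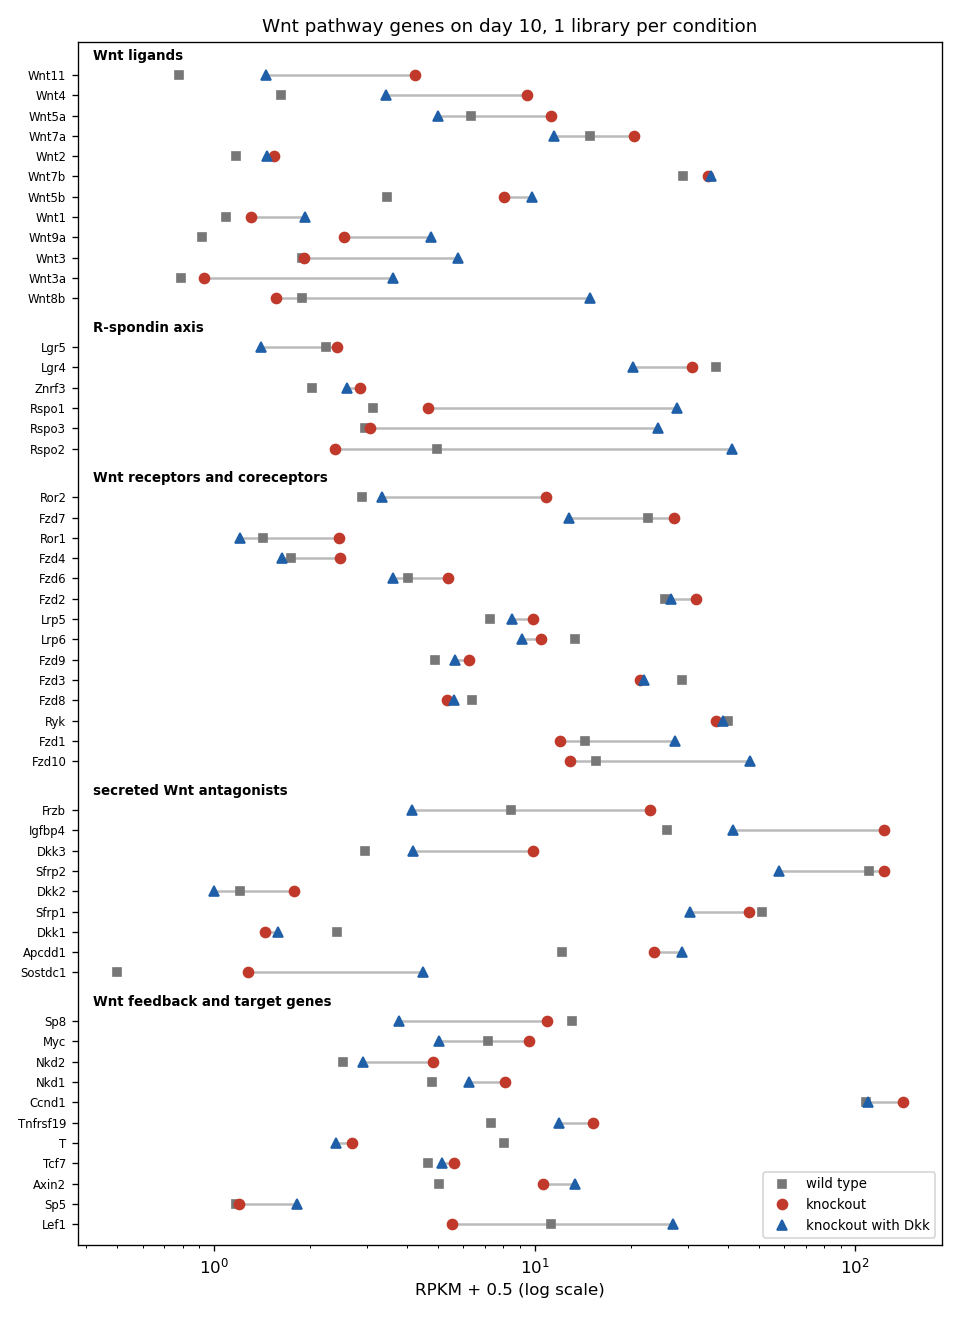
RPKM + 0.5 (log scale) of the Wnt pathway genes that passed the filter on day 10, by role, in 1 library per condition (square, wild type; circle, knockout; triangle, Dkk-treated), with a grey line joining the knockout pair. Rspo1, Rspo2, Rspo3, Wnt8b, Lef1 and Fzd10 lie to the right of both other libraries with Dkk, and Frzb and Sp8 to the left of both.

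Regional genes of the brain were called in both directions. Of 16 forebrain regulators that passed the filter 9 were higher with Dkk, against 1.68% of all genes, and 4 were lower, against 5.43%. Of the 9 higher genes 6 were under 1 RPKM without Dkk and passed in the treated library alone, and the median was 1.85 over the 16 genes but 0.28 over all 27 listed. Otx2, which is required for the forebrain and midbrain, was at 7.10 RPKM without Dkk, 73.6 with it and 26.3 in wild type on day 10. On day 6 it was at 5.27, 64.2 and 32.0 RPKM, so on both days the treated knockout was above wild type and the untreated knockout below it. Over both days limma gave Otx2 a log2 difference of 3.39 (SE 0.210, adjusted p = 0.0330). Otx1 was at 1.0 and 8.67 RPKM on day 10. The LIM-homeobox genes Lhx2 and Lhx9, of the cortex and thalamus, were at 2.16 and 38.6 RPKM and at 0.48 and 11.4 RPKM, against 16.1 and 5.82 RPKM in wild type. On day 6 both had been at 1.68 RPKM or less in each of these 3 conditions.

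The other higher forebrain genes were Emx2 (0.99 to 7.55 RPKM), Tbr1 (0.21 to 3.71), Fezf2 (0.24 to 3.02), Fezf1 (0.24 to 2.87) and Six3 (0.10 to 1.22), all of which passed the filter in the treated library alone. Emx2 and Tbr1 mark the dorsal forebrain and its first glutamatergic neurons, and Fezf1 and Fezf2 the anterior forebrain. Nkx2-1, Rax, Six6, Emx1 and the Dlx genes were under 1 RPKM in both libraries. Lower forebrain genes included Foxd1 (7.09 to 1.87 RPKM), Sp8 and Lhx5 (18.2 to 8.71). Pax6 was at 29.6 and 14.9 RPKM, just within 2-fold.

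Midbrain and boundary genes were themselves divided, 6 higher and 4 lower of 14, with a median of 0.74, or 0.56 over all 15 listed. Of these, 1 higher and 2 lower genes passed in 1 library alone. Tal2, a factor of midbrain neurons, was at 2.56 RPKM without Dkk, 41.2 with it and 14.7 in wild type. Lmx1a, of the roof plate and of dopamine neuron precursors, was at 3.29, 25.4 and 13.6 RPKM, Lmx1b at 4.87, 17.1 and 12.1, and Dmbx1 at 0.59, 6.36 and 1.85. Pax3 and Pax7, which mark the dorsal neural tube, were at 7.25 and 17.4 RPKM and at 3.68 and 8.79 RPKM, and the wild-type values of 18.1 and 9.07 RPKM were next to the treated ones. The lower genes were Pax2 (11.9 to 1.70 RPKM), Pax8 (3.36 to 0.03), Gbx2 (10.6 to 2.98) and Pax5 (1.82 to 0.55). Gbx2 lies on the hindbrain side of the boundary, and Pax2 and Pax8 are also active in spinal interneurons and in kidney precursors. En1, which marks the boundary region, was at 4.01 and 3.81 RPKM on day 10, after 2.73 and 47.5 RPKM on day 6.

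Of 18 hindbrain and spinal cord regulators that passed the filter 7 were lower, against 5.43% of all genes, and 2 higher, with a median of -0.56, or -0.25 over all 21 listed. Of the 7 lower genes 5 (Lhx3, Mnx1, Dbx2, Nkx2-2 and Phox2a) passed in the knockout library alone. Lhx3 and Mnx1, factors of motor neurons, were at 6.00 and 0.18 RPKM and at 4.52 and 0.38 RPKM, near the wild-type values of 0.12 and 0.36. Nkx6-1, of the ventral neural tube, was at 24.2 RPKM without Dkk, 4.88 with it and 6.18 in wild type, and Dbx2 at 4.67, 0.07 and 1.05. Phox2a, Nkx2-2 and Olig1 were lower as well, at 2.44 and 0.74 RPKM, 2.35 and 0.70, and 6.27 and 2.49. The higher genes were Gsx1 (2.53 to 13.1 RPKM, 9.78 in wild type) and Ptf1a (0.30 to 1.17), which mark dorsal progenitors. Dbx1, the most abundant member, was at 94.1 and 65.9 RPKM.

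**Figure D4:**
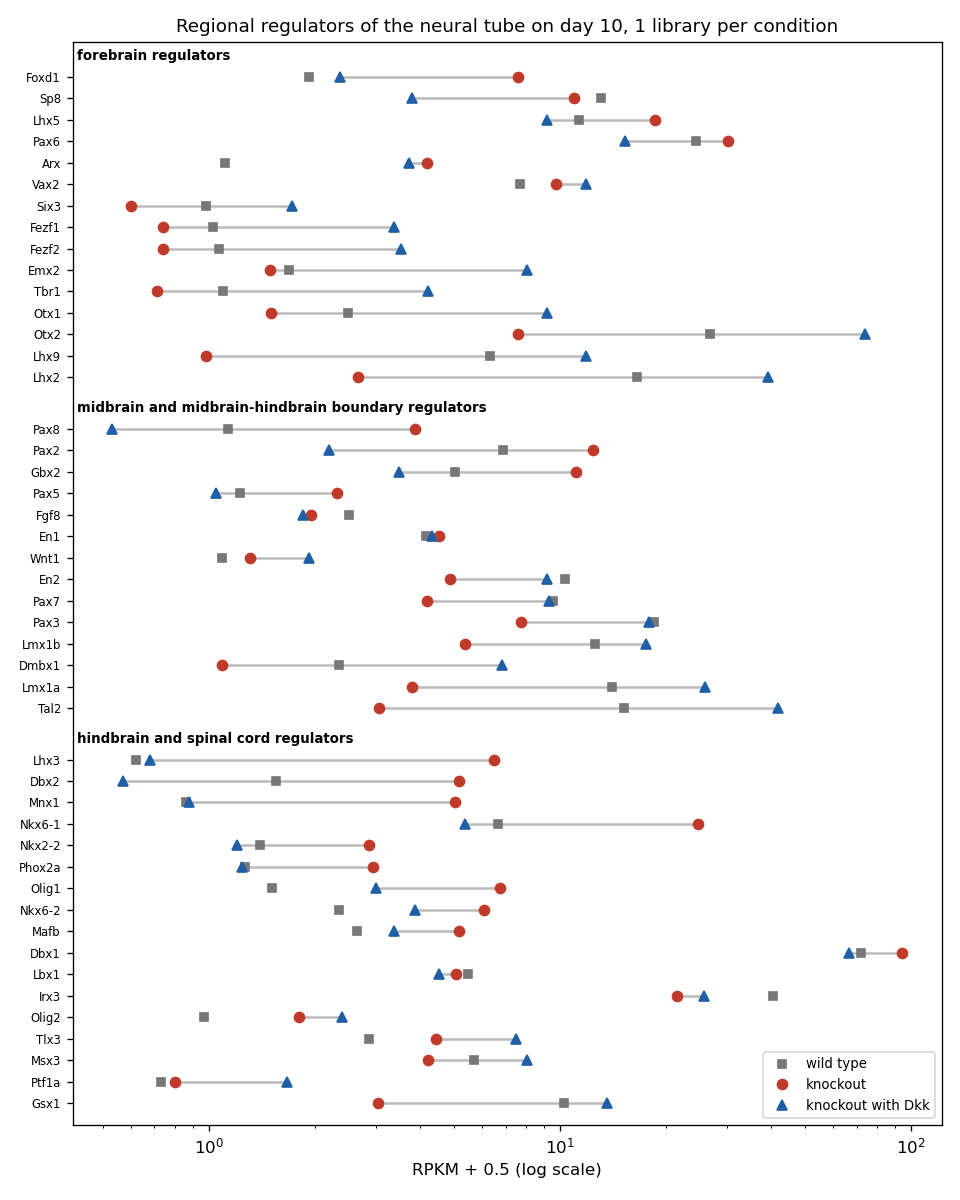
RPKM + 0.5 (log scale) of regional regulators of the neural tube on day 10, by region, among those that passed the filter, in 1 library per condition (square, wild type; circle, knockout; triangle, Dkk-treated), with a grey line joining the knockout pair. In the forebrain group 9 genes lie 2-fold or more to the right with Dkk, led by Lhx2, Lhx9 and Otx2. In the hindbrain and spinal group 7 lie 2-fold or more to the left, led by Lhx3, Dbx2 and Mnx1.

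General neural genes were abundant with and without Dkk. Of 28 neural progenitor genes, all of which passed the filter, 1 was higher and 1 lower, which is 7.14% called against 7.1% of all genes, with a median of -0.03, and their summed level was 2479 RPKM without and 2336 with Dkk. The lower gene was Slc1a3, a glutamate transporter of radial glia (26.6 to 9.12 RPKM). Sox2 was at 49.3 and 41.4 RPKM, Nes at 80.6 and 78.1, and Fabp7 at 759 and 713. Of 31 neuron genes 2 were higher and 4 lower, or 19.4% called, with a median of -0.18 and summed levels of 2796 and 3232 RPKM. Slc17a6, the vesicular glutamate transporter of many brainstem and thalamic neurons, was at 5.48 RPKM without Dkk, 26.7 with it and 19.4 in wild type, and Pou4f1, of sensory and dorsal midbrain neurons, at 5.34, 15.9 and 9.71. The lower genes were Neurog1 (24.7 to 9.48 RPKM), Neurod4 (22.7 to 9.38), Gad2, of inhibitory neurons (6.29 to 2.45), and Isl1 (7.20 to 3.05). Tubb3 was at 599 and 885 RPKM and Stmn2 at 408.3 and 502, so pan-neuronal transcripts were abundant in both libraries. The defining markers of the labelled culture, neuroectoderm, were thus present with and without Dkk.

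Connective tissue genes were lower with Dkk on day 10. Of 21 collagen genes that passed the filter 16 were lower, against 5.43% of all genes, and none was higher, with a median of -2.0, or -1.99 over all 22 listed. Of the 16, 5 passed in the knockout library alone. Col3a1 was at 382 RPKM without Dkk, 37.2 with it and 20.5 in wild type. Col1a1 was at 67.6, 6.46 and 1.27 RPKM and Col1a2 at 69.1, 6.08 and 1.85 RPKM, again with the untreated knockout highest. Fibrillar collagens and Col6a1 and Col6a2 had differences of -1.99 to -3.40, except Col2a1 of cartilage and notochord, at 26.7 and 23.3 RPKM. Basement membrane collagens differed less: Col4a1 was at 140.9 and 53.1 RPKM and Col18a1 at 39.9 and 21.1 RPKM. On day 6 the collagen median was -0.09 with 3 of 14 lower and 1 higher, and Col3a1 had been at 2.61 and 0.37 RPKM. Emid2, a collagen now named Col26a1, was low with Dkk on both days, with 52.3 against 6.22 RPKM on day 10 after 18.8 against 1.46 RPKM on day 6.

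Of 24 noncollagen matrix and stromal genes that passed the filter 21 were lower, against 5.43% of all genes, and none higher. Their median was -1.88, or -1.81 over all 26 listed. Of the 21, 5 passed in the knockout library alone. Lum and Dcn, small proteoglycans of fibroblasts, were at 48.1 and 4.22 RPKM and at 23.5 and 2.18 RPKM. Vtn, the adhesion protein vitronectin, was at 174.9 RPKM without Dkk, 28.1 with it and 18.3 in wild type, and at 12.6 and 1.07 RPKM in the knockout pair of day 6. The summed levels of this list were 961 RPKM without Dkk, 358 with it and 333 in wild type. Sparc, the most abundant member, was at 330 and 195.6 RPKM and was not called.

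In the insulin-like growth factor axis 7 of 11 genes were lower, against 5.43% of all genes, and none was higher. The median was -1.56, or -1.48 over all 12 listed, and 2 of the 7 passed in the knockout library alone. Igf2 was at 309 RPKM without Dkk, 71.8 with it and 60.4 in wild type, and H19, its imprinted neighbour, at 61.8, 23.1 and 11.8 RPKM. Igfbp5 was at 269.5, 76.6 and 49.5 RPKM, Igf1 at 2.97, 0.22 and 0.32, and Igfbp3 at 17.3, 3.33 and 3.43. The receptor genes Igf1r and Insr were at 7.87 and 7.96 RPKM and at 9.49 and 8.41 RPKM. Among 18 imprinted genes that passed the filter 3 were lower, Igf2, H19 and Dlk1 (48.6 to 17.1 RPKM), with a median of -0.35 for the list.

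Some mesodermal regulators were lower too, at lower levels. Of 11 somite genes that passed the filter 6 were lower, against 5.43% of all genes, and none higher, with a median of -1.24, or -0.28 over all 17 listed. Of these 6, 4 passed in the knockout library alone. The 6 were Foxc1 (9.07 to 1.15 RPKM), Foxc2 (3.69 to 0.82), Meox1 (4.22 to 1.5), Meox2 (2.69 to 0.28), Tbx18 and Pax1. Meox1 had been at 161.6 RPKM in the knockout and 1.44 with Dkk on day 6, so its level differed between the days without Dkk and was low on both days with it. Among 15 lateral mesoderm and mesenchyme genes that passed, 8 of them in the knockout library alone, 7 were lower, led by Osr1 (3.14 to 0.19 RPKM) and the receptor gene Pdgfrb (11.5 to 1.96). Of the 7, 3 passed in the knockout library alone, and the median over all 19 listed was -0.80. The 1 higher gene of that list was Lhx9, given above among the forebrain genes, which share it. Early streak genes were mixed, 3 higher and 3 lower of 10, and 2 of the higher and 1 of the lower genes passed in 1 library alone. Evx1 (5.85 to 0.43 RPKM), Snai1 and Lhx1 were lower, and Eomes (0.30 to 2.93 RPKM), Wnt3 and Wnt3a higher. Evx1, Lhx1 and Eomes are also active in neurons.

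Some heart, vessel and blood genes were lower as well. Of 21 cardiac genes 8 were lower, against 5.43% of all genes, and 1 higher. Of the 8, 2 passed in the knockout library alone. The cardiac median was -0.83, or -0.78 over all 25 listed. Actc1, a muscle actin, was at 54.5 RPKM without Dkk, 25.99 with it and 2.28 in wild type, and Myl7, an atrial myosin light chain, at 35.9, 14.3 and 0.75. Myl2, of the ventricle, was at 19.1, 15.8 and 0.69 RPKM, and Tnnt2 at 24.4, 13.7 and 1.03. The treated knockout thus stood well above wild type for these sarcomere genes, with a summed cardiac level of 252.6 RPKM without Dkk, 130.6 with it and 25.9 in wild type. Nppa, an atrial peptide hormone, was the higher gene at 0.99 and 4.40 RPKM. The defining regulators Nkx2-5 and Tbx5 were under 1 RPKM in both libraries. Of 9 endothelial genes 4 were lower, Cdh5 (4.15 to 0.94 RPKM), Emcn, Tie1 and Pecam1, and all 4 passed in the knockout library alone. The endothelial median was -0.98, or -0.725 over all 16 listed. Embryonic globins Hbb-y (11.8 to 1.38 RPKM), Hba-x (8.53 to 1.91) and Hbb-bh1 (8.99 to 3.45) were lower, with 9.52, 10.4 and 12.1 RPKM in wild type. Globin genes are close copies, and how reads with several matches were counted is not given.

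Single genes of the crest and endoderm lists were much higher with Dkk while others were lower, 3 and 3 of 10 in the crest list and 1 and 2 of 13 in the endoderm list. Of the lower crest genes 1 passed in the knockout library alone. Over all listed members the median was -0.31 in each of these lists. Tcfap2b, an AP-2 factor of crest and of dorsal interneurons, was at 3.25 RPKM without Dkk, 37.6 with it and 25.1 in wild type, while Ngfr was at 70.8, 16.4 and 13.9, and the crest marker Sox10 was under 1 RPKM in all 3 libraries. Ttr, which carries thyroid hormone and is made by visceral endoderm, liver and choroid plexus, was at 9.28 RPKM without Dkk, 154.7 with it and 6.48 in wild type. Its log2 difference was 3.99 on day 10 and 0.25 on day 6. The endoderm genes Afp and Apoa1 were lower, at 23.8 and 8.97 RPKM and at 7.24 and 1.84 RPKM, and Alb was at 0.22 RPKM without and 0 with Dkk. The part of other cell types in the Ttr value was not tested, and the defining endoderm regulators Foxa2, Gata4 and Gata6 were at 2.22, 2.86 and 0.86 RPKM with Dkk, against 4.51, 3.26 and 1.95 without.

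Of 24 pluripotency genes 9 passed the filter. The most abundant was Lin28a, at 13.8 RPKM without Dkk, 20.1 with it and 47.6 in wild type. Sall4 was higher (3.66 to 9.39 RPKM), Esrrb lower (7.22 to 2.24), and Pou5f1 was at 3.06 and 6.55 RPKM, against 20.3 RPKM in wild type. Nanog was at 0.27 and 0.08 RPKM. Surface epithelium genes were within 2-fold but for Gata3, lower (6.28 to 2.21 RPKM), and Grhl3 and Tcfap2c, higher, with Krt8 at 25.3 and 27.4 RPKM and Krt5 and Krt14 under 1 RPKM. Grhl3 and Tcfap2c passed the filter in the treated library alone.

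In the hedgehog pathway 4 of 11 genes were lower, against 5.43% of all genes, and 1 higher. Of the 4, 2 passed in the knockout library alone, and the median was 0.09, or 0.08 over all 13 listed. Shh, the ventral midline signal, was at 13.3 RPKM without Dkk, 3.88 with it and 4.98 in wild type, and its target and receptor gene Ptch1 at 31.5, 12.1 and 17.5. Hhip, also a target, was lower, Gli1 was at 4.92 and 2.81 RPKM, and the coreceptor gene Boc was higher (12.7 to 26.6 RPKM). On day 6 Shh was at 6.60 and 0.95 RPKM and Ptch1 at 48.3 and 11.9. In the BMP and TGF-beta list 4 of 21 genes were lower, all ligands: Tgfb2 (10.6 to 2.10 RPKM), Bmp5 (4.74 to 1.25), Tgfb1 and Bmp4 (6.60 to 2.48), and Msx2 was higher (0.85 to 2.29). Tgfb1 and Msx2 each passed the filter in 1 library alone, and the list median was -0.14 over all 26 listed. The BMP response genes Id1, Id2 and Id3 were at 27.3 and 25.8 RPKM, 116.1 and 113.9, and 77.8 and 102.6. Of 17 FGF pathway genes only Fgf15 was called, higher at 6.58 and 16.5 RPKM. Of 16 Notch pathway genes 3 were lower, Heyl (11.7 to 1.61 RPKM), Hey2 and Dll4, which are prominent in vessels, while the neural target Hes5 was at 54.4 and 65.8 RPKM.

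In 6 lists of general cell functions 5 of 82 genes were called, or 6.1%, close to the 7.1% of all genes. None of 18 cell cycle genes was called, although all 18 were above 0, with a median of 0.32 and Mki67 at 12.4 and 12.95 RPKM. On day 6 their median was -0.01. None of 7 DNA methylation and demethylation genes was called, with Dnmt1 at 36.4 and 44.9 RPKM and Dnmt3b at 3.74 and 6.65, against 13.6 in wild type. None of 12 p53 and stress genes and 1 of 14 housekeeping genes was called, Gusb (6.66 to 2.38 RPKM). Of 21 hypoxia and glycolysis genes 3 were lower, Aldoc (17.02 to 3.91 RPKM), Egln3 and Adm, and of 10 immediate early genes 1 was lower, Egr1.

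**Figure D5:**
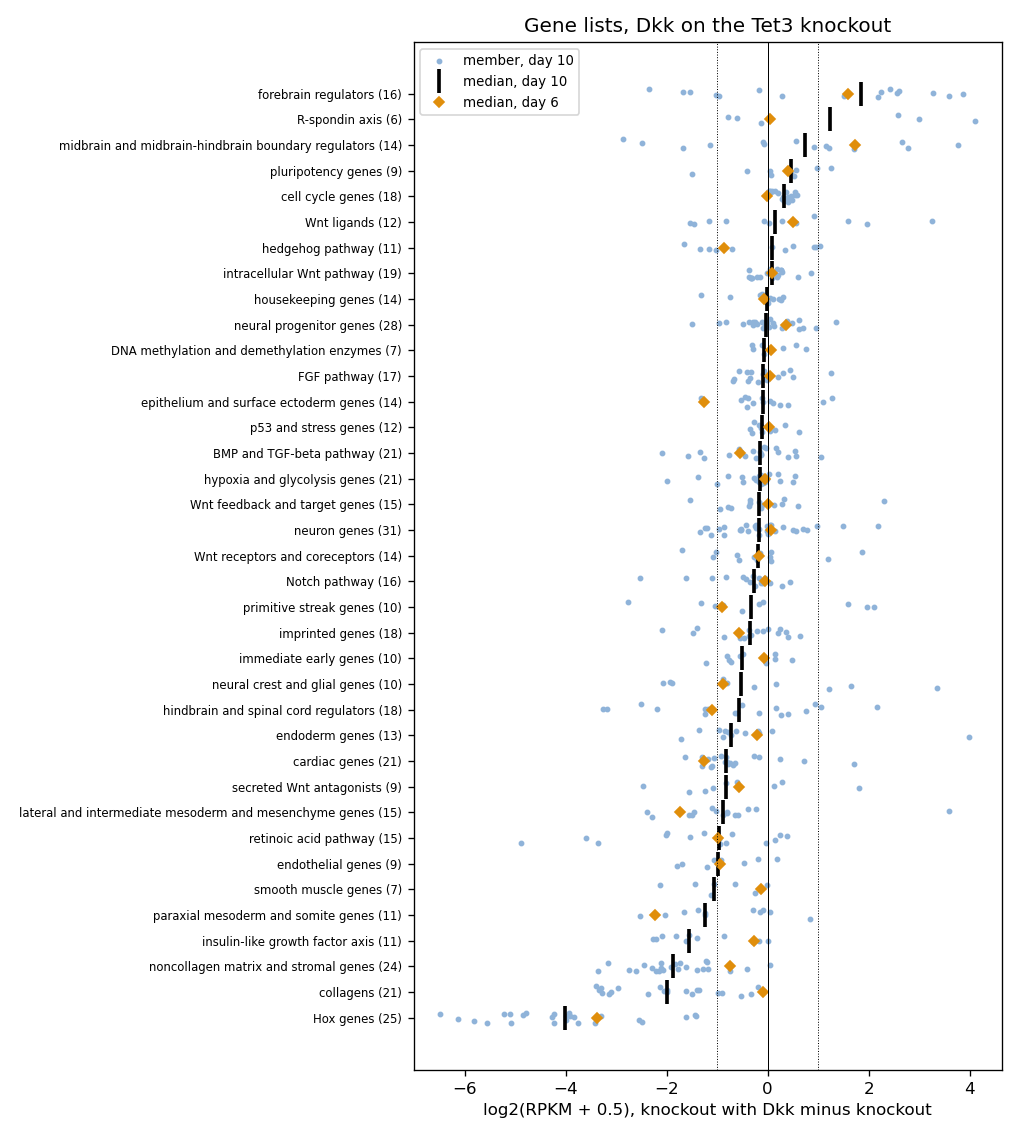
Differences in log2(RPKM + 0.5), knockout with Dkk minus knockout, for members of gene lists that passed the filter on day 10 (blue points), with the list's median on day 10 (black bar) and on day 6 (orange diamond). Dotted lines mark 2-fold and numbers in brackets the members plotted; medians run from -4.01 for Hox genes to 1.85 for forebrain regulators, and the medians of collagens were -2.0 on day 10 and -0.09 on day 6.

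The knockout and wild-type libraries of day 6 are separate from those of the day 10 pair. They were used to ask which of the genes called with Dkk on day 10 had differed by genotype before. The day 6 knockout has the genotype of both day 10 libraries, and the labels name no further line. These comparisons are therefore not independent of the knockout line. Of the 674 genes lower with Dkk on day 10, 219 had been higher in the knockout than in wild type on day 6, which is 32.5% of them and 36.1% of the 607 genes higher in the knockout. Of all 12414 genes 3.94% had been higher in the knockout on day 6 (5.24% of the 11586 genes at 1 RPKM in either day 6 library of that comparison). The genes lower with Dkk that had been lower in the knockout numbered 15. Of the 208 genes higher with Dkk, 30 had been lower in the knockout on day 6 (14.4% of them, 11.5% of 262), against 1.76% of all 12414 genes, and 15 higher. The 262 lower genes were 2.26% of the 11586. The day 10 genotype comparison shares the untreated knockout library with the Dkk comparison, so for it only the values given beside each gene are shown.

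At the edges of the 2-fold rule, Mnd1 (0.52 to 1.55 RPKM) was the higher gene with the smallest difference, 1.01, and Sybu (4.26 to 8.98) was just outside at 0.99. On the lower side Plcb1 (5.04 to 2.27 RPKM) was just inside, and Chst14 (5.74 to 2.63 RPKM), at a difference that rounds to the same -1.0, was just outside.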

How the data were processed

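The authors deposited 1 table of RPKM values, rounded to 2 decimals, for 21937 gene symbols in 10 libraries, and every column matched 1 sample title. Total RNA libraries were made and sequenced with SOLiD chemistry, per the labels' protocols. The tool HTSeq and the build mm9 are named, per the submitters' processing notes. For the aligner, annotation, strand setting and multiply matching reads, nothing is stated (not given in the sources used here).

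RPKM values are not counts, so no count model was run. Differences are log2(RPKM + 0.5), which understates changes of low genes. Genes at 1 RPKM or more in either library were compared, and 2-fold was the threshold. No sample is a replicate, and p-values come only from limma 3.58.1 (R 4.3.3) on the 6 SFEB libraries with Benjamini-Hochberg adjustment over 12414 genes, tested first on simulated data. Depth was estimated from the steps of low values, using lengths of 4329 genes with a single transcript in GENCODE vM21 (64.6% to 72.6% of values came within 0.15 read), and 95% counting intervals were derived from it. Tables were handled with pandas 2.3.3 in Python 3.11.15.

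The members and lists were chosen with earlier results of these data known. Of 685 gene names in 41 lists, 8 were found under an older RefSeq symbol and 1 was not in the table. Named are the 20 largest increases and decreases reaching 5 RPKM, the 6 largest differences of each list, all Wnt, Hox and retinoic acid genes, the 10 largest in each direction on both days, and the Tet genes. Other genes were named after their values were seen, and some genes that the rule names are not reported here. Promoter windows are from RefSeq on GRCm38.p6, another build than the table's. Alternatives were other pseudocounts, filters, scalings and limma settings.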

Additional observations from a re-analysis of the deposited data

Results flagged for a closer look

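Among the named genes and the members of the gene lists, 8 genes at 1 RPKM or more on both days passed 2-fold in opposite directions on the 2 days, and each day rests on 1 library a side, so the difference between days was not tested. Pax2 differed with Dkk by -2.50 on the log2 scale on day 10 and by 2.55 on day 6, being 11.9 and 1.70 RPKM without and with Dkk on day 10 but 0.93 and 7.87 on day 6. Pax8 differed by -2.86 on day 10 (3.36 and 0.03 RPKM) and by 1.42 on day 6 (0.31 and 1.67 RPKM). Rspo3 differed by 2.99 on day 10 (2.56 and 23.8 RPKM) and by -1.09 on day 6 (10.8 and 4.81 RPKM). Wnt4 differed by -1.46 on day 10 (8.97 and 2.95 RPKM) and by 1.32 on day 6 (2.02 and 5.79 RPKM). Afp differed by -1.36 on day 10 (23.8 and 8.97 RPKM) and by 1.23 on day 6 (1.07 and 3.19 RPKM). Pax5 differed by -1.14 on day 10 (1.82 and 0.55 RPKM) and by 2.78 on day 6 (1.04 and 10.1 RPKM). Lhx5 differed by -1.02 on day 10 (18.2 and 8.71 RPKM) and by 2.32 on day 6 (0.32 and 3.60 RPKM). Fbln2, a matrix gene, differed by -1.39 on day 10 (6.45 and 2.15 RPKM) and by 1.10 on day 6 (3.69 and 8.48 RPKM). In Pax2, Pax8, Wnt4, Pax5 and Fbln2 the untreated knockout held more, and the treated knockout less, on day 10 than on day 6. No group had enough libraries to look for one far from the others.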

How the results depend on the processing

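With a filter of 5 RPKM, which leaves fewer genes, 86 genes were higher and 351 lower with Dkk on day 10, and 21 were higher and 87 lower on both days. Pseudocounts of 0.1 and 1, rescaling to a common sum, centring and no filter kept these 4 counts within 1.5 times, and the counting interval, run on the 2 day 10 counts, kept 177 higher and 653 lower. Rescaling moved the median by -0.10 and centring by 0.01 on the log2 scale. The limma calls depended on the settings: 2 higher and 9 lower with all 10 libraries, 0 and 0 with no filter (1501 genes at an unadjusted p under 0.05, against 1040 with the filter), 13 lower with 1 RPKM in any SFEB library, 15 lower with a pseudocount of 0.1, 8 higher and 38 lower with a pseudocount of 1, and 15 higher and 74 lower with an intensity trend. The cause was not tested. Of 170 named genes past 2-fold, 155 stayed so with a pseudocount of 1, 169 after rescaling, and 170 with a pseudocount of 0.1 or centring. Of 9 lists whose median was past 2-fold, 53 of 54 alternatives kept the sign, and the R-spondin axis turned from 1.23 to -0.027 with no filter, which adds 3 members under 1 RPKM. No paired analysis was possible because the labels give no replicate number, other than by day, which is a term of the limma fit. No replicate could be left out for the same reason. The depth of the library with Dkk is the least certain, since a total of 75800000 reads came nearer to whole reads (mean cosine 0.607 from 70 values) than 37000000 (0.523 from 127).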

Other observations

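The following 10 gene groups were chosen after their values were seen and are described without a test. Of 14 choroid plexus genes 9 passed the filter on day 10, and 8 were higher and none lower with Dkk, 5 of the 8 passing in the treated library alone. Their summed level was 29.9 RPKM without Dkk, 190.8 with it and 22.02 in wild type, of which Ttr made up 9.28, 154.7 and 6.48 RPKM. The channel genes Kcne2 and Kcnj13 were listed at 0 in the knockout and in wild type and at 2.88 and 1.05 RPKM with Dkk. Trpm3 was at 0.05 and 1.63 RPKM, Clic6 at 2.83 and 6.80, Folr1 at 3.48 and 8.39, Sostdc1 at 0.78 and 4.00 and Calml4 at 0.53 and 2.23, while Enpp2 was at 12.2 and 7.57 and Aqp1, Cldn2 and Kl stayed under 1 RPKM. Of 15 motile cilium genes that passed the filter 10 were higher, against 1.68% of all genes, and none lower, but 9 of the 10 passed in the treated library alone. Their median over all 21 listed was 0.87. Foxj1, the master regulator of motile cilia, was at 3.69 RPKM without Dkk, 8.92 with it and 1.30 in wild type, Ccno at 0.15, 3.62 and 0.14, and Trp73 at 0.09, 3.70 and 0.31. Rsph1, Ccdc39, Ccdc40, Rfx2 and Rfx3 were within 2-fold.

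All 5 AP-2 factor genes were higher, 3 of them passing in the treated library alone, with a summed level of 6.83 RPKM without Dkk, 64.7 with it and 39.5 in wild type. Tcfap2d, of the dorsal midbrain, was at 0.42, 14.5 and 6.29 RPKM. Barhl1 and Barhl2, homeobox genes of the diencephalon and dorsal neural tube, were at 0.07 and 2.05 RPKM and at 1.03 and 16.6 RPKM, and the cortical genes Dmrta2 and Dmrt3 at 0.78 and 4.91 and at 1.45 and 6.33 RPKM. Of 6 Iroquois genes Irx2, Irx4 and Irx6 were higher.

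Spinal motor neuron genes were lower in 10 of 12 cases, against 5.43% of all genes. Of the 10, 5 passed in the knockout library alone. The summed levels of the list were 72.1 RPKM without Dkk, 22.9 with it and 21.2 in wild type. Lhx4 was at 20.2 and 1.75 RPKM, and the acetylcholine transport gene Slc18a3 at 7.80 and 1.03. Olig2 was among the members within 2-fold. Skeletal muscle genes that passed the filter were lower in 8 of 10 cases, 5 of which passed in the knockout library alone, with Myog at 2.96 and 0.09 RPKM, Mylpf at 19.9 and 4.73 and Myod1 under 1 RPKM in both libraries. The 3 teashirt genes, which encode trunk zinc finger factors, were lower, Tshz1 at 26.6 RPKM without Dkk, 8.87 with it and 8.82 in wild type. Of 7 Hox cofactor genes Meis1 (44.4 to 12.9 RPKM) and Meis2 (77.5 to 35.7) were lower, and the 4 Pbx genes were within 2-fold.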
